A study of Mus musculus with 8 samples.

Results

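Maternally imprinted promoters carry DNA methylation on the allele inherited from the mother, and the gene is transcribed from the unmethylated paternal allele. The mark is set in the oocyte and is present in somatic cells. The zinc finger protein ZFP57, which takes part in keeping the mark, binds the methylated hexamer TGCCGC. The mark is erased in the germline before birth, so that male germ cells are known to lack it. 6 genes of this kind were examined. Mest encodes a protein of the α/β hydrolase fold, Snrpn the SmN protein of the spliceosome and Plagl1 a zinc finger transcription factor. Impact encodes a regulator of translation, Peg10 a protein derived from a retrotransposon and Slc38a4 a sodium-coupled amino acid transporter.

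Methylation was measured by reduced representation bisulfite sequencing (RRBS) in a cell fraction isolated from testes at postnatal day 6 with an anti-CD49f antibody and labelled type A spermatogonia. The mice were F1 males of the C3H/HeN strain. Control dams were given tap water, and arsenic dams received sodium arsenite at 85 ppm in it between gestational days 8 and 18. Each group held 4 samples that each combined 8 testes of 4 mice, so that the spread between samples is a spread between pools.

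RRBS cuts DNA with MspI at CCGG and reads the ends of the fragments, so that each CpG is seen by reads of its own strand. Members were all cytosines within 3 kb of a curated RefSeq transcription start site (TSS) of the 6 genes in GRCm38 (mm10). 252 of the 2130064 cytosines of the table met this rule, and all lay in CpGs. Slc38a4 held 72, Snrpn 50, Impact 42, Mest 33, Peg10 33 and Plagl1 22. Although the 6 promoters were grouped as lying outside a host gene, the annotation places the Snrpn cytosines in introns of Snhg14 and part of those of Peg10 in Sgce. The 6 genes have 16 such TSSs, and cytosines lay nearest to 11 of them. Reads were summed over the 252 cytosines, with a read counted at each cytosine it covers. The sums were 13388, 11711, 12583 and 10473 in control samples 1 to 4. In arsenic samples 1 to 4 they were 11103, 11980, 11598 and 14825. This corresponded to 41.6 to 58.8 reads per cytosine and sample.

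Copies of the hexamer TGCCGC were counted around each TSS. Both strands were searched over the 6001 bases around each of 31601 curated TSSs, and 58.0% of these windows held at least 1 copy, with a median of 1 and a 90th percentile of 3. The windows of the Mest TSSs at chr6:30738050 and chr6:30738053 held 12 copies, that of the third, at chr6:30733506, near which 24 of the 33 Mest cytosines lay, held 2, and that of the Snrpn TSS at chr7:60005199 held 10. The Plagl1 window held 6 copies, both Impact windows 5 and the Peg10 window 3. The Slc38a4 windows held 0, 2 and 2, and the other 5 Snrpn windows held 0. A match is a description of the sequence and does not show that the protein is bound.

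Sequenced cytosines of the CpG that lies wholly inside the hexamer were found in Snrpn (6 cytosines), Plagl1 (1) and Impact (2). A CpG formed by the last C of the hexamer and the base after it was not counted as inside. The Snrpn and Plagl1 copies that were read are shown because they hold the CpG whose methylation ZFP57 is known to read. Each is given 5′ to 3′ on the strand that carries the hexamer, which is in capitals.
Snrpn, chr7:60004700-60004729, minus strand: tcagagctgtgtTGCCGCgacttgtaggtc
Snrpn, chr7:60004776-60004805, minus strand: caggagctgtgtTGCCGCagcgtgggggct
Snrpn, chr7:60004855-60004884, plus strand: gttacacgcaggTGCCGCactaacacaccc
Snrpn, chr7:60005108-60005137, plus strand: ctgcgctagtctTGCCGCaatggctcaggt
Snrpn, chr7:60005184-60005213, plus strand: tgcgcacattttTGCCGCaatgcaggggtc
Plagl1, chr10:13090730-13090759, minus strand: tgccgtgggcttTGCCGCgcaacacgccag

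The 6 Snrpn cytosines so placed had a level of 52.9% ± 6.54 (SD, n = 8), against 56.7% ± 2.67 at the other 44 Snrpn cytosines. The single Plagl1 cytosine in the hexamer was at 57.8% ± 10.8, and the 2 Impact cytosines were at 49.6% ± 5.35. Mest, Peg10 and Slc38a4 had no such cytosine among those read. The methylation level is the share of reads that kept the C, and a gene's level is the unweighted mean over its cytosines.

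All 6 genes had an intermediate mean level. Over the 8 samples the mean level was 62.8% ± 12 (SD, n = 8) for Plagl1, 59.1% ± 8.68 for Peg10, 57.5% ± 1.47 for Slc38a4, 56.3% ± 2.02 for Mest, 56.2% ± 2.97 for Snrpn and 50.3% ± 6.27 for Impact. Neighbours in this order did not differ beyond their spread. Plagl1 was above Peg10 in 3 of 8 samples, Peg10 above Slc38a4 in 4, Slc38a4 above Mest in 6, Mest above Snrpn in 4 and Snrpn above Impact in 6. Across 18061 genes with at least 5 cytosines within 3 kb of a TSS the median level was 9.11%, and 4.05% of these genes lay within the range of the 6. In single cytosines, 188 of the 252 (74.6%) were at 35 to 65%, a class that held 8.72% of all CpGs. The share differed by gene, from 42 of 42 in Impact to 32 of 72 in Slc38a4. In Slc38a4, 24 cytosines were at 65 to 90%, 5 at 90% and above and 9 at 10 to 35%. Its mean level thus averages high and low cytosines. Only 2 member cytosines were below 10%, where 29.8% of all CpGs lay. In a pool of cells, a level near 50% cannot tell 1 methylated allele in every cell from a mixture of methylated and unmethylated cells.

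**Figure D1:**
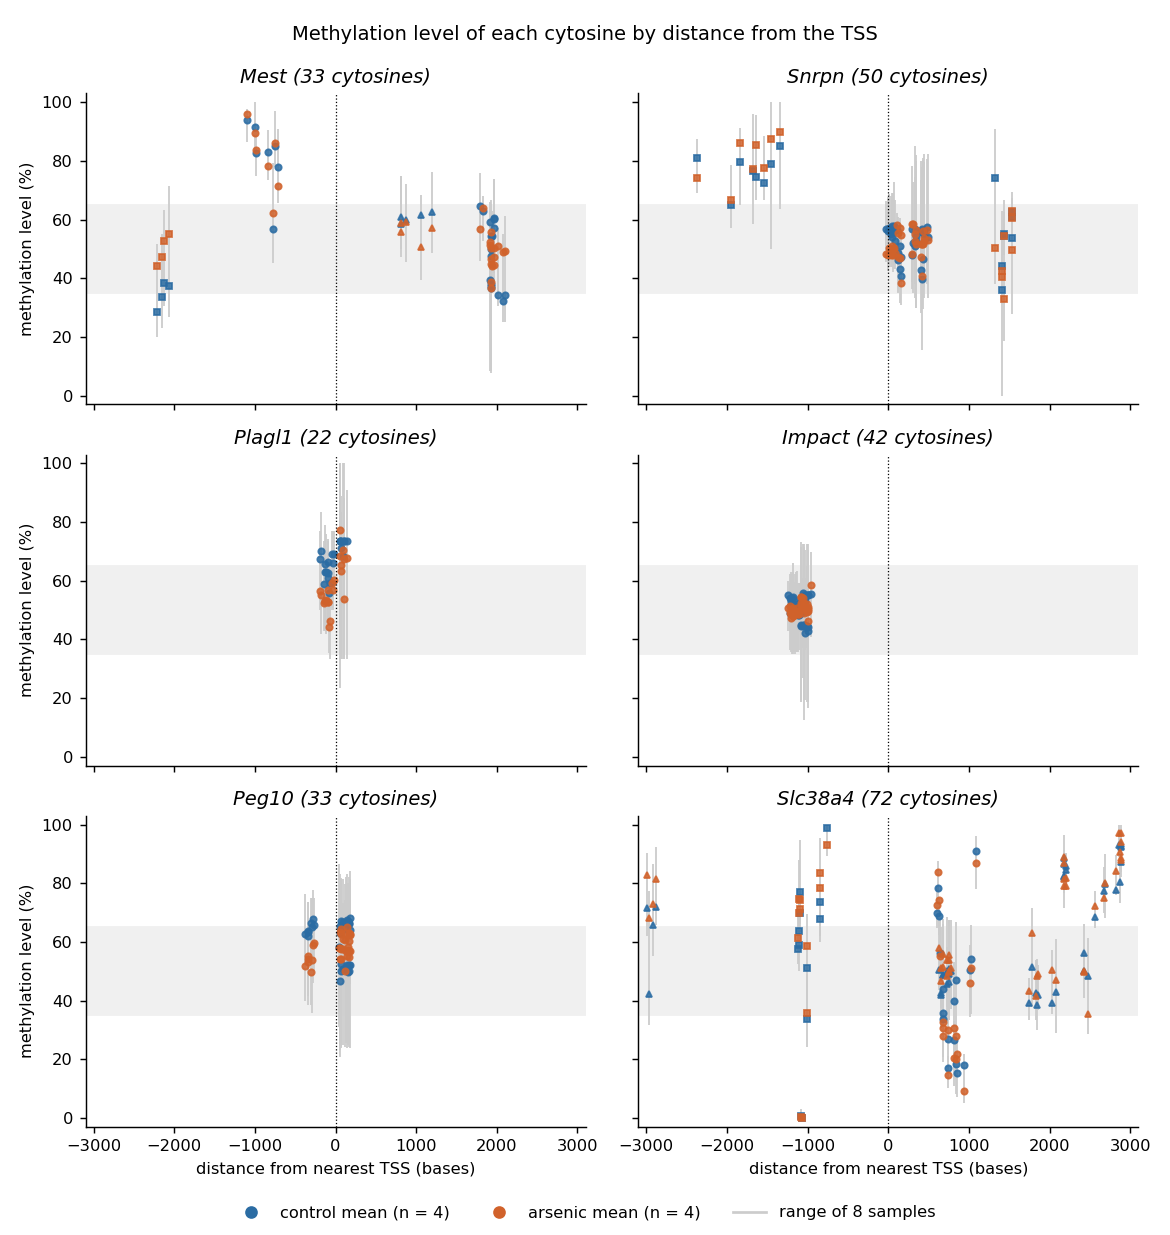
Methylation level of the 252 cytosines (y axis, %) against the distance from the nearest TSS (x axis, bases; negative is upstream), with control means in blue, arsenic means in orange and grey lines for the range of the 8 samples; marker shapes separate the TSSs of one gene and the grey band marks 35 to 65%. Plagl1, Impact and Peg10 form single clusters in or near the band, whereas Mest and Snrpn rise to over 80% upstream and Slc38a4 runs from 0% to over 90%.

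Impact, Peg10 and Plagl1 were each read over a short stretch near a single TSS, along which the level changed little beside its spread between samples. The other 3 genes were read over longer distances and near several TSSs, and their levels differed along them. The genes were therefore not read over like distances. Snrpn cytosines from 0 to 500 bases downstream of chr7:60005199, a like stretch, had mean levels between 39.4% and 57.7%. Impact encodes an inhibitor of the stress kinase GCN2, and its 42 cytosines lay in an intron, 1241 to 954 bases upstream of the TSS at chr18:12974460. This is the nearer of 2 Impact TSSs, and the cytosines also lay within 3 kb downstream of the other, at chr18:12971923. All 42 were at 35 to 65%. Peg10 was read from 374 bases upstream to 184 bases downstream of its TSS at chr6:4747306, over 25 cytosines in a Peg10 exon and 8 in the neighbouring Sgce gene. The upstream cytosines were at 59.6% ± 11.2 and the downstream ones at 59.0% ± 11.6 (SD, n = 8). Plagl1 was read from 197 bases upstream to 142 bases downstream of chr10:13090832, the downstream cytosines lying in an exon shared with Hymai. Its level was 58.9% ± 9.96 upstream over 14 cytosines and 69.7% ± 20.6 downstream over 8.

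In Mest, the 7 intergenic cytosines between 1094 and 719 bases upstream of the TSS at chr6:30733506 were at 81.3% ± 3.84. The 14 cytosines from 1500 to 2000 bases downstream of the same TSS were at 50.2% ± 5.01, and 3 further on, in the same intron, were at 41.6% ± 10.9. Close to the 2 other Mest TSSs, 4 cytosines 2209 to 2069 bases upstream were at 42.1% ± 13 and 5 cytosines 811 to 1202 bases downstream were at 58.5% ± 8.04. The 6 Mest cytosines over 65% all lay in the upstream stretch.

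Snrpn was read near 2 of its 6 TSSs. At chr7:60005199, whose first exon it shares with Snurf inside an intron of the long RNA Snhg14, 34 cytosines from 30 bases upstream to 487 bases downstream were at 51.9% ± 4.58. At chr7:60170956, in an intron of Snhg14 too, the level differed along the window. It was 85.3% ± 13.9 over 2 cytosines 1500 to 1000 bases upstream, 48.4% ± 9.13 over 5 cytosines 1000 to 1500 bases downstream and 58.3% ± 4.07 over the next 3.

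Slc38a4 was the most uneven of the 6. Within 3 kb of its most upstream TSS at chr15:97055956, 12 intronic cytosines 500 to 1000 bases downstream were at 50.01% ± 6.48. The level was 45.9% ± 4.99 from 1500 to 2000 bases, 67.2% ± 1.65 from 2000 to 2500 bases and 85.5% ± 2.59 from 2500 to 3000 bases downstream. Near the TSS at chr15:97020359 the level fell from 81.2% at 615 bases to 15.8% at 739 bases downstream on the minus strand. It was 13.7% at 945 bases and 88.9% at 1086 bases on the plus strand. Near chr15:97031213, the 2 strands of a CpG 1075 bases upstream were at 0% and 0.624% in the mean of the 8 samples, while other cytosines upstream of the same TSS reached 96.0%. The reference is the genome of another strain, and whether C3H/HeN mice have this CpG was not tested. These were the 2 member cytosines below 10%.

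Level was also read by CpG density. A cytosine was called CpG-dense where the 500 bases around it had a GC content of at least 50% and an observed to expected CpG ratio of at least 0.6. This held for 109 of the 252, with 42 in Impact and 22 in Plagl1, which were all of those genes, and 25 in Peg10. Of the 109, 97 (89.0%) were at 35 to 65%, against 74.6% of all members, which include the 109. The dense cytosines thus come mostly from these genes, and the share among dense cytosines of the whole table was not computed. In Snrpn the 7 dense cytosines were lower than the 43 others by 7.17 points (SD 5.70), in 8 of 8 samples (exact sign-flip test, two-sided p = 0.00781, the smallest that 8 samples allow). The 7 all lay near chr7:60005199, while the 43 included the 16 cytosines near chr7:60170956. Against the 27 others of the same TSS, a comparison added after the data were seen, the dense cytosines were lower by 2.36 points (SD 7.31) in 5 of 8 samples (exact p = 0.438). In Mest the 3 dense cytosines, all on 1 fragment strand, were lower than the 30 others by 16.1 points (SD 11.1), again in 8 of 8 samples with the same exact p, and the 30 included the 7 upstream cytosines at 81.3%. On that fragment strand the 3 dense cytosines were at 41.6% ± 10.9 and the 4 others, which were not dense, at 42.1% ± 13 (SD, n = 8). The Mest difference thus does not separate density from position. In Peg10 the difference was -0.636 points (SD 17.5, exact p = 0.898) and in Slc38a4 it was -1.54 points (SD 5.16, exact p = 0.43). With GC content of at least 55% and a ratio of at least 0.65, neither Mest nor Snrpn had a dense cytosine, so their difference rests on the looser definition.

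Whether gestational arsenic changed these levels was examined gene by gene. No gene differed between the groups in the exact permutation test over samples, whose smallest two-sided p is 0.0286 with 4 against 4, or in limma fitted to all 18061 gene windows. Of those windows limma called 0% at an adjusted p of at most 0.05, and 5.41% had an unadjusted p under 0.05. At the same time 56.1% of them were lower in the arsenic group, and the 6 genes were split, 3 lower and 3 higher. The mean of the 6 genes was 57.8% ± 1.53 in the control group and 56.3% ± 1.83 in the arsenic group (SD, n = 4), a difference of -1.49 points that is given without a test.

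Slc38a4 had the smallest p of the 6. Control samples 1 to 4 were at 55.8%, 56.6%, 56.0% and 57.9%, and arsenic samples 1 to 4 at 59.1%, 59.8%, 58.2% and 56.9%. The groups overlapped only through arsenic sample 4, which was below control sample 4. The difference was +1.93 points (exact permutation p = 0.0571, limma adjusted p = 0.970). It was not shared by its TSSs. The level was higher in the arsenic group by 3.46 points at chr15:97055956 (exact p = 0.0571) and by 4.06 points at chr15:97031213 (exact p = 0.143), and it fell by 3.05 points at chr15:97020359 (exact p = 0.0571).

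Plagl1 had the largest difference and the largest spread. Its level was 55.2%, 73.2%, 65.2% and 75.2% in control samples 1 to 4 and 55.8%, 41.0%, 75.3% and 61.8% in arsenic samples 1 to 4. The lowest and the highest sample were both in the arsenic group. The difference was -8.73 points (exact permutation p = 0.371, limma adjusted p = 0.947), with 20 of its 22 cytosines lower in the arsenic group. These 22 cytosines lay on 2 fragment strands and did not vary independently.

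Mest was at 58.3%, 54.9%, 53.8% and 55.5% in control samples 1 to 4 and at 55.1%, 59.3%, 55.2% and 58.3% in arsenic samples 1 to 4. The groups overlapped almost completely, and the difference was +1.38 points (exact permutation p = 0.314, limma adjusted p = 0.992). Snrpn was at 53.3%, 61.2%, 58.0% and 54.6% in the control samples and at 55.7%, 53.8%, 59.3% and 53.6% in the arsenic samples. Here too the groups overlapped, with a difference of -1.14 points (exact permutation p = 0.657, limma adjusted p = 0.982).

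Impact was at 52.0%, 55.2%, 45.1% and 48.8% in the control samples and at 56.2%, 56.4%, 38.2% and 50.5% in the arsenic samples. Arsenic sample 3 lay below all others, and the means were nearly equal, with a difference of +0.0208 points (exact permutation p = 1, limma adjusted p = 0.999). Peg10 was at 58.5%, 49.7%, 75.4% and 57.8% in the control samples and at 60.7%, 52.5%, 51.3% and 67.1% in the arsenic samples. Its extremes were both control samples, and the difference was -2.44 points (exact permutation p = 0.743, limma adjusted p = 0.999). Directions that were not called were unstable for Mest, Snrpn, Impact and Peg10, where other coverage minimums, distances or the loss of 1 sample turned them.

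**Figure D2:**
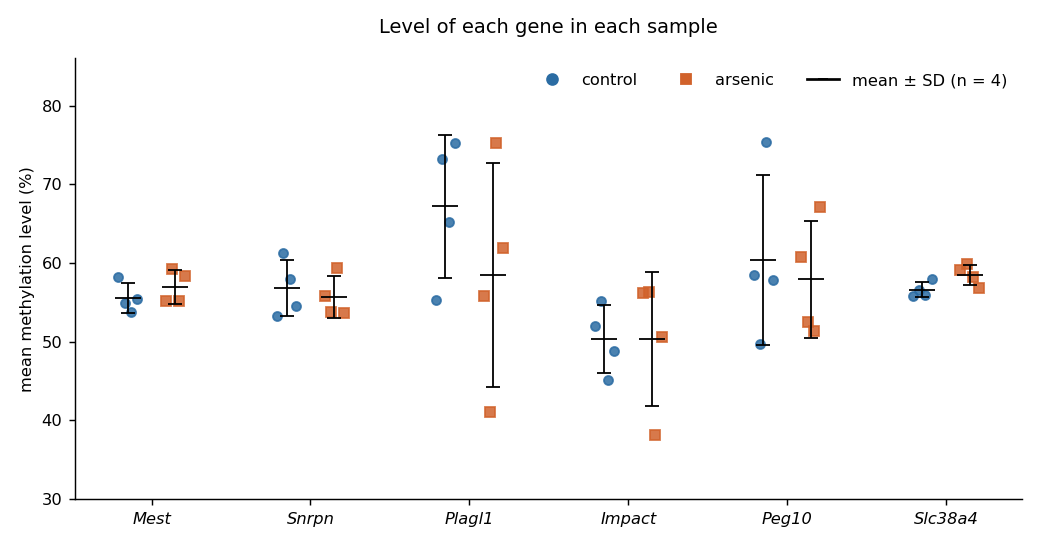
Mean methylation level of each gene (y axis, %) in the 4 control samples (blue circles) and the 4 arsenic samples (orange squares), with black bars for the mean ± SD (n = 4). Control and arsenic samples overlap for each of the 6 genes, and Plagl1, Impact and Peg10 spread over a wider range than Mest, Snrpn and Slc38a4.

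At single cytosines, 1 of the 252 was a differentially methylated cytosine (DMC), defined by a likelihood-ratio test on pooled counts with q of at most 0.01 and a difference of at least 10 points. Of all CpGs 0.552% were DMCs, 0.323% lower and 0.228% higher in the arsenic group, and at CpGs between 40 and 60% the share was 1.00%, so that 1 of 252 is near the background. The DMC was in Slc38a4, at chr15:97058923 on the minus strand, 2967 bases upstream of the nearest TSS and outside annotated genes. It was at 31.6%, 37.1%, 60% and 40% in control samples 1 to 4 and at 68.8%, 65.6%, 77.4% and 60.9% in arsenic samples 1 to 4. All arsenic samples were higher than all control samples, though control sample 3 (60%) and arsenic sample 4 (60.9%) were almost equal. With 31 to 46 reads a sample, the 95% Wilson interval was 19.1 to 47.5% in control sample 1 and 60.2 to 88.6% in arsenic sample 3.

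The pooled counts of this cytosine gave a difference of +25.5 points (q = 0.00319). The test takes reads as independent and ignores the spread between pools. limma over all CpGs, which uses that spread, gave an adjusted p of 0.971 there and called 0% of all CpGs, while 5.07% had an unadjusted p under 0.05. Without control sample 1, 2 or 4 or arsenic sample 3 in turn, q was 0.0272, 0.0128, 0.0101 or 0.0214 and the cytosine was no longer called. Without control sample 4 the 1 member DMC was instead the Slc38a4 cytosine at chr15:97053084. Over all members, 134 cytosines were lower and 117 higher in the arsenic group, and among cytosines that differed at all 53.4% were lower, against 52.4% of all CpGs.

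In 5 of the 252 cytosines the groups did not overlap, against 2.10% of all CpGs and 2.94% of those between 40 and 60%, so that 5 of 252 is near the background. All 5 were higher in the arsenic group. In Mest the largest of these differences was at chr6:30735519, in an intron 2013 bases downstream of a TSS, where control samples 1 to 4 were at 30.6%, 36.4%, 32.1% and 38.1% and arsenic samples 1 to 4 at 38.5%, 52.4%, 55.9% and 57.1%. The difference was +16.7 points (q = 0.107), and arsenic sample 1, with 13 reads, was close to control sample 4. A second Mest cytosine on the same fragment strand, at chr6:30735586, differed by +16.7 points (q = 0.139). The other 3 were in Slc38a4, the DMC and cytosines that differed by +10.2 points at chr15:97053084 (q = 0.0111) and by +5.35 points at chr15:97019735 (q = 0.448). Of the 34 fragment strands with at least 3 cytosines, the groups did not overlap on 1, and there the arsenic group was lower. This was the Slc38a4 minus strand 2177 to 2427 bases downstream of chr15:97055956, at 78.2% ± 2.57 in the control and 73.7% ± 0.761 in the arsenic group (SD, n = 4). The share among other fragment strands was not computed, so that 1 of 34 has no background beside it and is a description only.

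Neighbouring cytosines at intermediate levels had similar methylation within a sample. Among members at 40 to 60%, neighbours on the same strand at most 100 bases apart differed by a median of 3.58 points, and over the 8 samples their levels had a median correlation of 0.916 (126 pairs). For all other CpGs at 40 to 60% the medians were 11.3 points and 0.367 (22369 pairs). Such neighbours are read by the same reads, and the distance between them was shorter in the members, with a median of 12 against 23 bases. With neighbours at most 20 bases apart, a distance chosen after the data were seen, where the median distance was 8 and 9 bases, the medians were 0.932 (90 pairs) and 0.463 (10204 pairs). By gene, at all levels, the median correlation was 0.957 in Impact, 0.949 in Peg10, 0.924 in Plagl1, 0.916 in Snrpn, 0.722 in Mest and 0.447 in Slc38a4. These correlations describe the fragments and were not tested.

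The 2 strands of the same CpG are read by different reads. Over the 8 samples, the median correlation of their levels was 0.0891 in 38 member CpGs with both strands at 40 to 60%. It was 0.0101 in 21872 other such CpGs. By gene, at all levels, the median was 0.433 in Peg10 (12 CpGs), 0.292 in Slc38a4 (16), 0.120 in Snrpn (10), 0.0753 in Impact (20) and -0.271 in Mest (4). The fragment of Peg10 from 49 to 184 bases downstream of the TSS was read on both strands. On its plus strand, 12 cytosines gave mean levels of 25% in control sample 2 and 76.8% in control sample 3. Each sample kept its level along the strand, with an SD between cytosines of 2.97 points, while the SD between samples was 16.7 points. On the minus strand of the same fragment control sample 2 was at 56.3%, and the 8 samples ran from 47.9% to 80.4%.

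**Figure D3:**
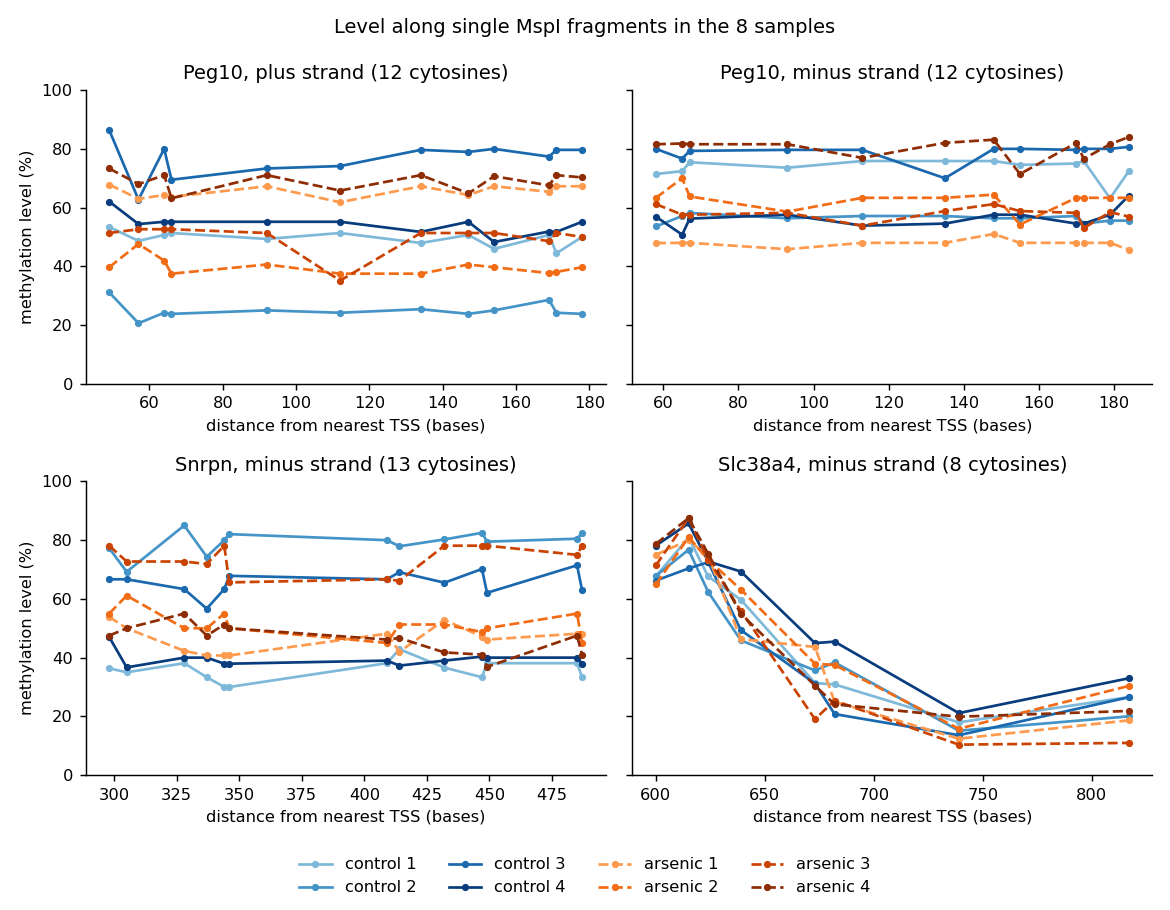
Methylation level (y axis, %) of each cytosine along single MspI fragments (x axis, distance from the nearest TSS in bases) in the 4 control samples (solid blue lines) and the 4 arsenic samples (dashed orange lines). In Peg10 and Snrpn each sample keeps its own level along the strand and the samples lie far apart, whereas in Slc38a4 all samples share one slope from about 600 to 740 bases.

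The SD between samples was set beside a counting SD, taken from the mean level of a fragment strand and its mean reads per cytosine. The observed SD was larger on 18 of the 34 fragment strands with at least 3 cytosines. Among them were 2 of 5 in Mest, 2 of 4 in Impact and 4 of 12 in Slc38a4. The ratio of the observed to the counting SD ran from 0.404 to 2.55. A ratio over 1 on a single strand can come from counting alone, and the share to be had so was not computed. Where levels along a strand are uneven, as in Slc38a4, this counting SD is too large. For single members at 40 to 60% the median ratio was 1.26, below the 1.33 of all other CpGs at these levels. The strands with 8 or more cytosines and the highest ratio of their gene are given for the 4 genes where that ratio was over 1. On such strands the highest ratio was 0.708 in Mest and 0.727 in Slc38a4. With fewer cytosines it reached 1.69 in Mest (4 cytosines) and 1.59 in Slc38a4 (6 cytosines). For the plus strand of the Peg10 fragment, with 60.3 reads a sample, counting error gives an SD of 6.56 points, and the observed SD was 2.55 times as large, as large as 8.90 independent reads would give. At its deepest cytosine control sample 2 was at 23.8% (95% Wilson interval 15 to 35.6%, 63 reads) and control sample 3 at 69.5% (56.9 to 79.8%, 59 reads). Snrpn showed a ratio of 1.97 on the minus strand 298 to 487 bases downstream of chr7:60005199, where the samples ran from 35.6% to 79.3%. Impact showed 1.88 on the plus strand 1088 to 991 bases upstream (18.9% to 70.4%) and Plagl1 1.73 on the plus strand 55 to 142 bases downstream (33.5% to 92.1%). In Impact the highest and the lowest samples were all in the arsenic group, while the 4 control samples lay between 40% and 51.8%. Intervals from counts cover counting error only, and no molecular identifiers separate copies of 1 molecule.

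The parity of the counts is given beside this spread. In Impact 77.1% of methylated and 81.6% of unmethylated counts were even numbers, in Plagl1 68.2% and 77.3%, and in Peg10 56.8% and 75.4%. The shares were 53.8% and 61.8% in Snrpn, 51.2% and 57.8% in Slc38a4 and 45.8% and 48.5% in Mest. At 40 to 60%, members had 57.8% and 67.6% even counts and all other CpGs 53.2% and 57.3%. Counts of single reads would be even about as often as odd. In control sample 1, Impact had 27 reads at chr18:12973219 and 54 at chr18:12973238, both on the plus strand. On the minus strand of Snrpn it had 21 at chr7:60004750 and 42 at chr7:60004752. The counting SDs take all counts as independent, so that they are too small, and the ratios too large, wherever 1 read was counted more than 1 time. The part of this in the spread was not tested.

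Of the 34 fragment strands, 20 had a larger SD between samples than between cytosines of 1 sample. They included 2 of 2 in Plagl1, 4 of 4 in Impact, 3 of 3 in Peg10, 5 of 8 in Snrpn and 3 of 5 in Mest. In Slc38a4 the count was 3 of 12. There the SD between cytosines reached 34.7 points on a strand that holds the CpG at 0% and 28.2 points on strands without it, and the SD between samples was 2.59 to 10.5 points.

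**Figure D4:**
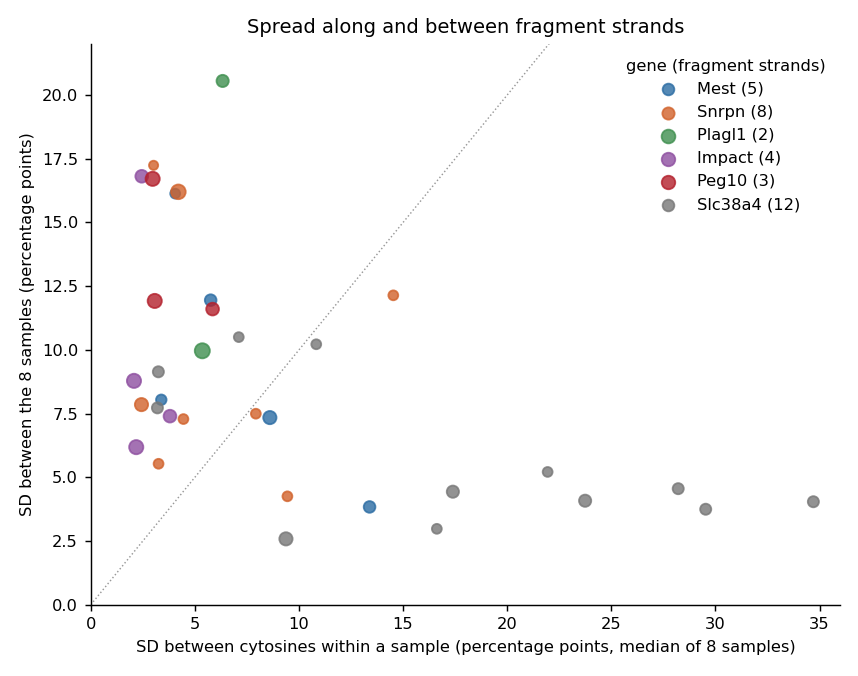
SD between the 8 samples (y axis, percentage points) against the median SD between cytosines within a sample (x axis, percentage points) for the 34 fragment strands with at least 3 cytosines, coloured by gene, with point size growing with the number of cytosines and a dotted line of equality. Plagl1, Impact and Peg10 lie above the line and most of Slc38a4 lies below it.

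The levels of the 6 genes were set beside promoters that mark the cell type. Promoters of germline genes are known to be methylated in somatic cells and unmethylated in germ cells. Of 13 listed, 11 had at least 3 cytosines from 1 kb upstream to 100 bases downstream of the TSS, and their mean level was 80.5%, between 76.2% and 83.8% by sample, against a median of 1.84% over 12638 promoters. The lowest was Tex14 (37.4%), a gene of the germ cell bridge, and the highest Dazl (94.9%), which encodes an RNA-binding protein of germ cells. Sycp3 and Tdrkh were not covered. From 2 kb to 4 kb upstream of H19, a region where male germ cells are known to carry methylation on both alleles, 4 cytosines were at 66.3% ± 8.31 (SD, n = 8), with 70.5% ± 9.36 in the control group and 62.0% ± 5.09 in the arsenic group (n = 4 each, exact permutation p = 0.171). The windows of the 6 maternally imprinted genes had mean levels of 50.3 to 62.8%, and they include stretches at other levels, such as that upstream of Mest. Together these markers go against the label of the cells, and the fraction is therefore named here by its isolation. The genes and lists were chosen with earlier results of these data known and are not independent of them. The study itself reported higher expression of the type A spermatogonial markers Itga6 and Gfra1 in this fraction than in one of prospermatogonia. It also reported that the methylation profiles of the fraction clustered apart from those of prospermatogonia and sperm. Neither of these was analysed here. What part other testicular cells had in these levels was not tested.

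15 of 16 other maternally methylated imprinted genes had at least 5 cytosines within 3 kb of a TSS. Their levels ran from 19.1% in Grb10, which encodes an adaptor of the insulin receptor, to 70.1% in Nnat, which encodes a membrane proteolipid. In the arsenic group 8 were lower and 7 higher, the groups overlapped in all 15 (3.14% of all gene windows did not overlap), and the median difference was -1.59 points. Peg3 and Usp29, which share a promoter, were counted with the same cytosines.

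**Figure D5:**
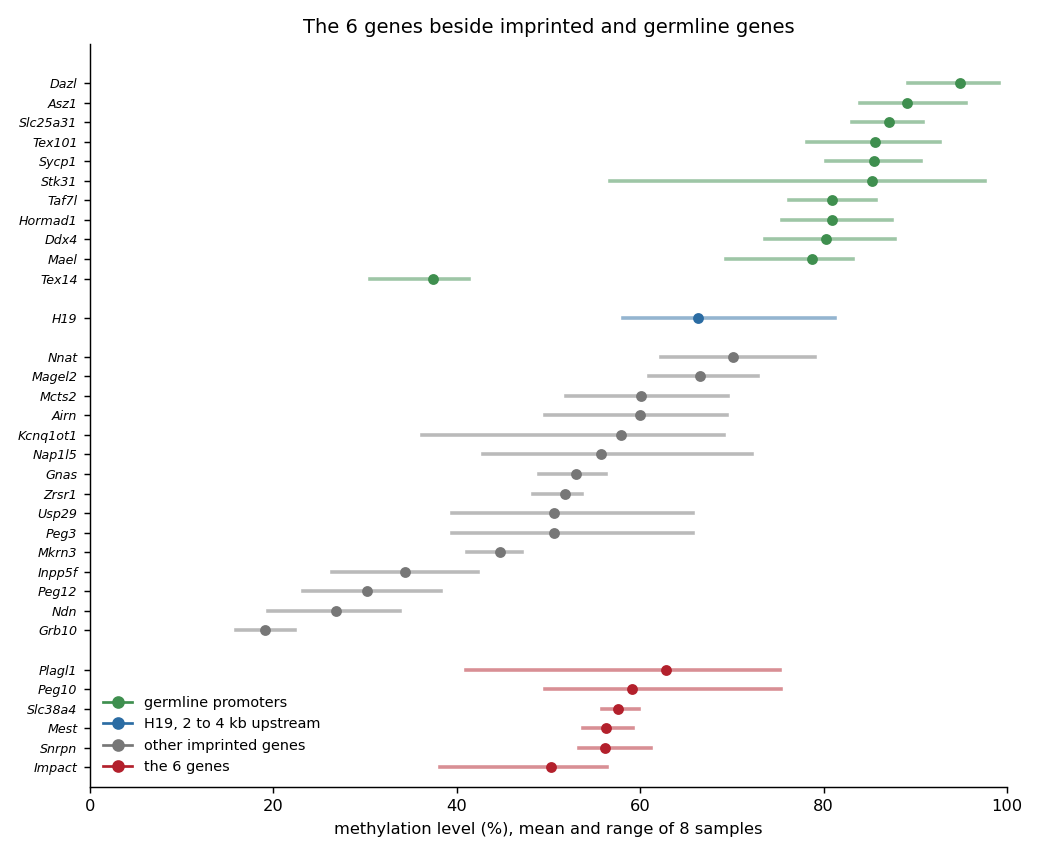
Methylation level (x axis, %; point for the mean and line for the range of the 8 samples) of the 6 genes, 15 other maternally methylated imprinted genes, the stretch upstream of H19 and 11 germline promoters. The 6 genes lie between 50.3% and 62.8%, inside the range of the other imprinted genes, and 10 of the 11 germline promoters lie above all of the 6.

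Genes whose level varied most like the mean of the 6 over the 8 samples were sought among 213 other genes with at least 10 cytosines within 1 kb of a TSS and a level in the same range. The 5 highest Pearson correlations were 0.880 for Gm51263, 0.868 for Nat3, 0.815 for Fam174c, 0.80 for Psen2 and 0.782 for Mir6913. With 8 samples and 213 candidates these values are a description only.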

How the data were processed

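The authors prepared RRBS libraries from 4 control and 4 arsenic pools, trimmed the reads with Trim Galore 0.6.5, mapped them to mm10 with Bismark 0.22.3 and joined the samples with methylKit 1.22.0, as their methods and processing notes give. The deposited table holds counts, without normalization, of the reads on each cytosine, of those that kept C and of those with T. Coverage was at least 10 in all samples and equalled both counts together in every row. Coverage summed over all cytosines was 96428439 to 133406260 per sample, where a read counts at each cytosine it covers. Cytosines on chromosomes 1 to 19, X and Y were used, and strands were kept apart.

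The 6 genes and all gene lists were chosen with earlier results of these data known. Group differences were tested with two-sided exact permutation tests over the 70 assignments, and differences within samples with exact sign-flip tests. limma 3.58.1 in R 4.3.3 was fitted to log2 ratios of summed methylated and unmethylated counts plus 1, over all gene windows and over all CpGs. DMCs were called with a likelihood-ratio test on pooled counts, which is logistic regression for 2 groups, and Benjamini-Hochberg q. methylKit itself was not run. These tests were checked on simulated data. In each gene the text names the cytosine with the largest difference among those whose groups did not overlap, any DMC, and 5 genes of like pattern. The second Mest cytosine and the 2 further Slc38a4 cytosines were named after their values were seen. Sequences and TSSs are from RefSeq on GRCm38. Scripts ran in Python 3.11.15 with scipy 1.17.1, pysam 0.24.0, pandas 2.3.3, matplotlib 3.10.9 and numpy 2.4.6. Sequence of Impact was searched and is not printed here. Alternatives covered coverage minimums of 20 and 30, weighting, strands, distance, TSS sets, CpG density, other tests, a replicate block and leaving out each sample.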

Additional observations from a re-analysis of the deposited data

How the results depend on the processing

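No gene passed a threshold under any alternative, although with 1 sample left out the smallest exact p is 0.0571. The difference turned to -1.06, -1.21 and -0.826 points for Mest (coverage of at least 20, within 1 kb, promoter), to 3.42 for Snrpn (CpG-dense cytosines), to -3.07 and -0.325 for Impact (coverage of at least 30, model TSSs added) and to 0.361 at both coverage minimums and 0.502 with weighting for Peg10. Without turning, it moved to 16.2 for Mest with CpG-dense cytosines (exact p = 0.0857), to -6.83 for Snrpn and -4.13 for Peg10 in the promoter, to -0.000838 for Peg10 and 3.64 for Slc38a4 with CpG-dense cytosines, and for Slc38a4 to 0.769 within 1 kb (exact p = 0.8) and 5.001 in the promoter. Plagl1 and Slc38a4 kept their direction wherever a value could be had. Coverage of at least 20 or 30 left too few cytosines for Plagl1 and so for the mean of the 6. Leaving out 1 sample gave 0.618 to 2.27 points for Mest, -2.38 to 0.339 for Snrpn (turned without control sample 2), -14.3 to -2.91 for Plagl1, -1.99 to 4.07 for Impact (turned in 5 of 8), -6.00 to 2.57 for Peg10 (turned without control sample 3), 1.49 to 2.48 for Slc38a4 and -2.25 to -0.659 for the mean of the 6, which was 2.42 with CpG-dense cytosines alone. The cause was not tested.

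DMCs numbered 2 at coverage of at least 20 or 30, 0 with overdispersion scaling (a test that called 0 CpGs in the whole table) and 0 with limma. Leaving out 1 sample gave 0 to 2, with 0 without control sample 1, control sample 2 or arsenic sample 3, and 2 without arsenic sample 1, 2 or 4. Gene windows called were 0 in all alternatives. The CpG density difference of Mest was -18.2 to -14.1, of Snrpn -7.97 to -5.91, of Peg10 -3.99 to 3.93 and of Slc38a4 -2.70 to -0.706 with 1 sample left out. Under the stricter density definition it could be computed for Peg10 alone, and at coverage of at least 20 for Snrpn (-4.78, exact p = 0.0391) and Slc38a4 (-2.20, exact p = 0.211) alone. Within 1 TSS, added after the data were seen, that of Snrpn was -2.36 and no longer called (exact p = 0.438).

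Replicate numbers are shared by the groups, and the labels do not say whether samples with the same number share more than that. Their levels did not deviate together over the gene windows (correlations from -0.0249 to 0.0263), which cannot show whether they were handled together. With a replicate block the difference of Slc38a4 stayed at 1.93 points (exact sign-flip p = 0.25 over 4 pairs, where the smallest possible is 0.125), 1 DMC was called with the Cochran-Mantel-Haenszel test and 0 gene windows were called. At the 41.6 to 58.8 reads per cytosine of the members, single levels near 50% have a counting SD of 7.65 points in the median.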
